A study of Mus musculus with 6 samples.

Results

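The genes described here encode subunits of the mitochondrial respiratory chain and ATP synthase, together with the electron carrier cytochrome c. They were a list of 55 mouse genes given by symbol, of which 13 lie in the mitochondrial genome and 42 in the nucleus. All 55 were found among the 56748 genes of the deposited table, and all 55 were abundant enough to test, at an average of 10 or more normalized counts. A normalized count is a read count divided by the library's size factor. The samples were brain tissue of mice implanted with MCF10DCIS CD63-NLuc cells, a human line that models ductal carcinoma in situ of the breast and that carries the vesicle protein CD63 fused to NanoLuc luciferase. Tissue was taken 28 days after implantation in 3 libraries and 3 days after implantation in 3 libraries. All 6 libraries came from implanted mice, and no library of a mouse without an implant was analysed here. The labels give neither strain, age, sex nor brain region. Each library's title carries a number of its own, but whether these are 6 separate animals is not said. The p-values therefore measure the spread between these libraries, which may in part be technical.

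The respiratory chain passes electrons from NADH and succinate to oxygen and pumps protons across the inner mitochondrial membrane, and ATP synthase uses the proton gradient to make ATP. Complex I oxidizes NADH, complex II oxidizes succinate, complex III passes the electrons to cytochrome c, complex IV reduces oxygen, and ATP synthase is counted as complex V. Complexes I, III, IV and V mix subunits from both genomes, whereas complex II and cytochrome c are wholly nuclear. Mammalian mitochondrial mRNAs are cut from long transcripts of either strand of the mitochondrial genome, and mt-Nd6 is the only protein-coding gene read from the strand opposite to the others. Neurons draw most of their ATP from this pathway.

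Depth ran from 14230520 to 16059196 reads in the day 28 libraries and from 11958137 to 15033955 reads in the day 3 libraries. Over all genes, 31 of 16162 differed between day 28 and day 3 (20 lower and 11 higher at day 28, limma with Benjamini-Hochberg adjustment at 0.05), which is 0.192% of the genes tested. Leaving out day 28 replicate 1, 2 or 3 gave 1, 2 and 2 genes, and leaving out day 3 replicate 1, 2 or 3 gave 49, 2 and 618. All 10 neuron markers, from Rbfox3 to Gad2, were well above 0 in every library. The 12 cerebellar markers summed to 3433 to 6689 normalized counts at day 28, against 28552, 27453 and 3776 in day 3 replicates 1 to 3. Day 3 replicates 1 and 2 thus stood apart. The markers' mean log2 deviation from each gene's mean over the 6 libraries was -2.39, -2.39 and 0.54 in day 28 replicates 1 to 3, against 2.97, 2.94 and -1.68 at day 3. Day 28 replicate 3 thus lay between, with Cbln3 at 490 normalized counts, against 2.00 and 10.7 in day 28 replicates 1 and 2. In bulk tissue, fewer cells of a type and less RNA per cell cannot be told apart.

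A run of 6 mitochondrial genes had almost no reads of its own, and each of these but mt-Atp8 had a near-identical nuclear copy in the annotation. The sequences of 3 such pairs are shown because their likeness limits what the counts can say. Each is a stretch of 60 bases read from the GENCODE M21 transcripts (build GRCm38, sense strand of the transcript), with the mitochondrial gene (chrM) first and its nuclear copy, a pseudogene on chromosome 1, below it. Capitals mark bases that differ between the pair.
mt-Nd3: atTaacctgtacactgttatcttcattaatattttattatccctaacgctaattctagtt
Gm28438: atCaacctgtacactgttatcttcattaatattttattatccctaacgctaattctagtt
mt-Co2: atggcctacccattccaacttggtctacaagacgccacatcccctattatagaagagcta
Gm28661: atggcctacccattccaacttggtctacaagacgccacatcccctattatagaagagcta
mt-Atp6: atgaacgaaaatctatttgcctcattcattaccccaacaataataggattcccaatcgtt
Gm10925: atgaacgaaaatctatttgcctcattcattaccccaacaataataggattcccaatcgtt
These are transcript bases 1 to 60 of each gene. Over the whole aligned length, mt-Nd3 and Gm28438 were identical at 344 of 345 bases. mt-Co2 and Gm28661 matched at all 681 aligned bases, mt-Atp6 and Gm10925 at all 678, mt-Co3 and Gm28437 at all 783, and mt-Nd4l and Gm10222 at all 294. A read that lies within such a stretch cannot be assigned to one of the pair by sequence. The aligner and the treatment of reads with several matches are not given in the sources used here.

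Among the 13 mitochondrial genes, levels per kilobase of transcript fell into 2 ranges that followed the order of the genes on the mitochondrial genome. From mt-Nd1 through mt-Nd2 to mt-Co1, and again from mt-Nd4 to mt-Cytb, levels were higher. mt-Co1, the catalytic core of complex IV, stood at 187835 ± 13390.4 normalized counts per kb at day 28 and 195869.7 ± 23116 at day 3 (SD, n = 3 each). In falling order at day 28, mt-Nd1 had a mean of 168563 per kb at day 28 and 180051 at day 3, mt-Cytb 146450.2 and 152195, mt-Nd2 102035 and 110404, mt-Nd5 61519 and 62293, mt-Nd4 44901 and 49355, and mt-Nd6 5682 and 9005. The values of mt-Co1 and mt-Nd1 overlapped over the libraries of each day, though within every library mt-Co1 was the higher. mt-Nd6, alone on its strand, stood far below the other 6. By contrast the neighbour of mt-Co1, mt-Co2, which takes electrons from cytochrome c, stood at 88.2 ± 17.5 at day 28 and 92.5 ± 23.9 at day 3. All 6 genes from mt-Co2 to mt-Nd4l (mt-Co2, mt-Atp8, mt-Atp6, mt-Co3, mt-Nd3 and mt-Nd4l) had means of 64.4 to 142 normalized counts per kb at day 28 and 55.5 to 141 at day 3. Every library of both days showed these low levels.

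The share of 75-base windows of a transcript that also occurred in a transcript of another gene was 99.5% for mt-Co2, 99.5% for mt-Atp6, 99.9% for mt-Co3, 97.8% for mt-Nd3 and 98.7% for mt-Nd4l. It was 61.5% for mt-Nd4, 39.8% for mt-Co1, 5.71% for mt-Nd2 and 1.66% for mt-Nd5, and 0% for mt-Nd1, mt-Nd6, mt-Cytb and mt-Atp8. mt-Atp8 was thus low with no shared window among annotated transcripts, and the genome itself was not searched here. The copies held many more reads than their partners: Gm10925 had 6604, 6816 and 6101 normalized counts in the day 28 libraries, against 5557, 7334 and 7213 in the day 3 libraries, while mt-Atp6 had 96.8, 99.1 and 93.8 normalized counts in the day 28 libraries, against 67.8, 110.0 and 111 in the day 3 libraries. Even with the copy added, mt-Atp6 reached 9697 normalized counts per kb at day 28 and 9982 at day 3, far below mt-Co1. The values of these 6 genes are therefore uncertain. For mt-Nd4 and mt-Co1 the copies held a small part of the reads counted. Gm28439 held 4.49% of its sum with mt-Nd4, and Gm29216 and Gm13340 together 2.55% of their sum with mt-Co1. The log2 differences of the summed counts were -0.12 for mt-Nd4 and -0.055 for mt-Co1, against -0.13 and -0.056 for the genes alone. If reads with several matches were dropped, neither gene nor copy would hold them, and these sums cannot show how many. The levels per kb of mt-Nd4 and mt-Co1 may then be understated.

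**Figure D1:**
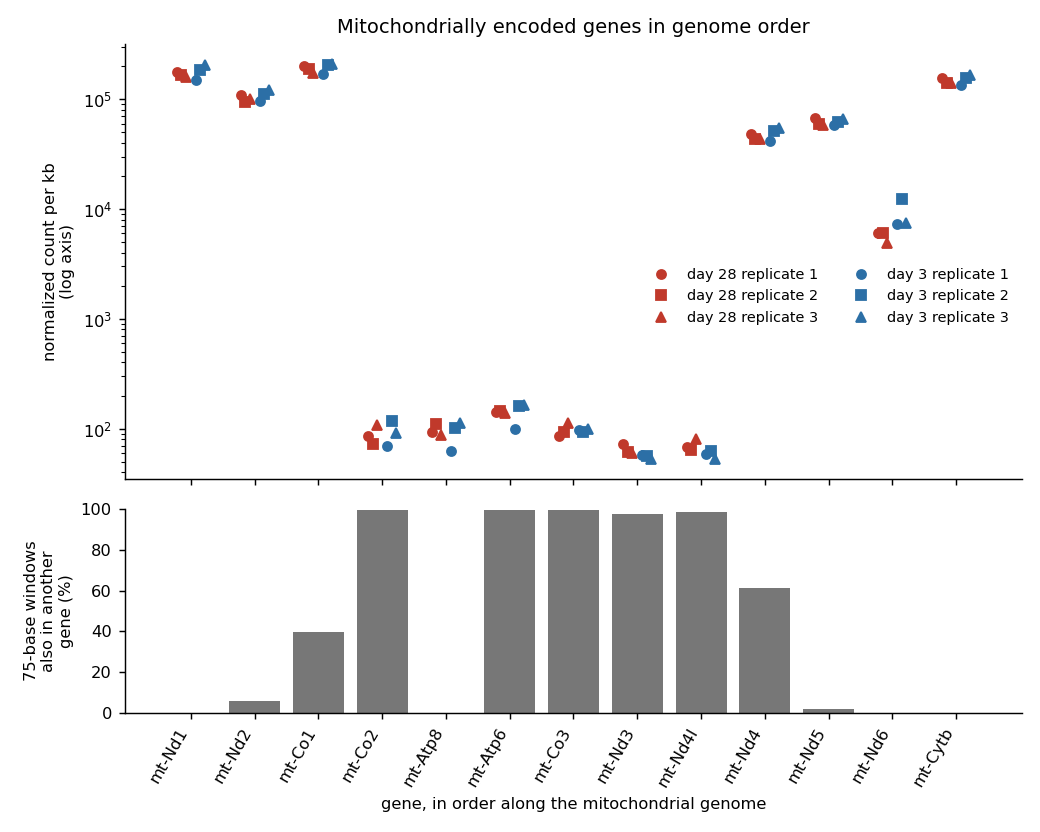
Upper panel, normalized count per kilobase (log axis) of the 13 mitochondrial genes in genome order, 1 point per library; lower panel, the percent of 75-base windows that also occur in another annotated gene. All 6 genes from mt-Co2 to mt-Nd4l lie between 52.5 and 163 in every library, whereas mt-Co1 lies between 169248 and 210852.

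The mitochondrial genes did not pass the test between days: 0 of 13 had an adjusted p under 0.05 in limma, where 0.124% of all genes were called lower and 0.0681% higher at day 28. Their median log2(value + 1) difference, day 28 minus day 3, was -0.052, against -0.0091 over all genes tested. Over single libraries left out, the lowest median was -0.16, when day 3 replicate 1 was dropped, and the highest 0.010, when day 3 replicate 3 was. For the 7 genes with a mean of at least 1000 normalized counts it was -0.086, with 7 of 7 differences negative, although mt-Nd1, mt-Nd5 and mt-Cytb turned positive under quantile normalization, and for the 6 low genes, of which 2 were negative, it was 0.070. Together the 13 genes took 6.79, 6.18 and 6.04% of the reads of the day 28 libraries, against 6.01, 6.80 and 7.13% of those of the day 3 libraries. The groups overlapped, and the Wilson 95% interval of each share reached no further than 0.0146 percentage points to either side, which covers counting error only. The shares are in effect those of the 7 genes with a mean of at least 1000. The 6 low genes held 287, 283 and 318 normalized counts at day 28, against 242, 322 and 308 at day 3, of at least 827944 in all. Reads counted to the nuclear copies are not included. The rRNA genes mt-Rnr1 and mt-Rnr2, which poly(A) selection should largely leave behind, took 0.797, 0.798 and 0.774% at day 28, against 0.712, 0.745 and 0.911% at day 3.

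mt-Nd6 had the largest difference of the 55 genes in either direction. It encodes a membrane subunit of complex I and had 3151, 3142 and 2554 normalized counts in the day 28 libraries, against 3785, 6383 and 3853 in the day 3 libraries (log2 difference -0.63, SE 0.19, adjusted p = 0.216). Its groups did not overlap, but day 3 replicate 2 stood far above the other day 3 libraries, and the difference did not pass. Without day 3 replicate 2 it was -0.38 (limma adjusted p = 0.374). mt-Nd5 lies on the opposite strand next to mt-Nd6 and had 122235, 108372 and 106026 normalized counts in the day 28 libraries, against 105372, 113782 and 121716 in the day 3 libraries (log2 difference -0.018, SE 0.13, adjusted p = 0.969). The mt-Nd6 count was 2.58, 2.90 and 2.41% of the mt-Nd5 count at day 28, against 3.59, 5.61 and 3.17% at day 3. Every day 28 library lay below every day 3 library in this ratio. The mt-Nd5 counts varied far less than those of mt-Nd6, so this is largely the same observation. The libraries were stranded, but the strand setting of the counting is not given, and the ends of the genes overlap.

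The other complex I genes of the mitochondrial genome, which form its proton-pumping membrane arm, overlapped between days where they were well counted. mt-Nd1 had 169725, 160799 and 153420.0 normalized counts in the day 28 libraries, against 144934, 177116 and 194876 in the day 3 libraries. mt-Nd2 had 113534, 99063 and 105140.2 normalized counts in the day 28 libraries, against 99935, 117209.5 and 126653 in the day 3 libraries. mt-Nd4 had 66161, 60013 and 59447 normalized counts in the day 28 libraries, against 57452, 71273 and 75306 in the day 3 libraries. In all 3 genes day 3 replicate 3 was the highest library while day 3 replicate 1 was among the lowest, so that the spread among day 3 libraries was wider than the gap between days. Their log2 differences were -0.086, -0.11 and -0.13. mt-Nd3 had 24.96, 21.4 and 20.9 normalized counts in the day 28 libraries, against 20.2, 19.5 and 18.3 in the day 3 libraries. mt-Nd4l had 19.97, 18.8 and 23.7 normalized counts in the day 28 libraries, against 17.4, 18.5 and 15.8 in the day 3 libraries. Both were higher in every day 28 library, which makes 2 of 13 genes, against 9.71% of all genes, yet they rest on about 20 counts a library and did not pass (adjusted p = 0.871 and 0.842, limma). With its copy Gm28438 added, the log2 difference of mt-Nd3 was -0.033, in place of 0.20 on its own. That of mt-Nd4l with Gm10222 added stayed positive at 0.081 (SE 0.091), in place of 0.25.

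Outside complex I, mt-Cytb, the core of complex III, had 179543, 161244 and 161830.0 normalized counts in the day 28 libraries, against 154736, 178412 and 189185 in the day 3 libraries (log2 difference -0.052, SE 0.14, adjusted p = 0.904). mt-Co1 had 309451, 292836 and 268327 normalized counts in the day 28 libraries, against 261488, 320602 and 325767 in the day 3 libraries (log2 difference -0.056, SE 0.16, adjusted p = 0.913). In both, the highest and the lowest library belonged to day 3. mt-Co2 had 58.9, 49.1 and 72.98 normalized counts in the day 28 libraries, against 47.6, 80.2 and 62.1 in the day 3 libraries. mt-Co3, the third core subunit of complex IV, had 66.9, 72.3 and 88.1 normalized counts in the day 28 libraries, against 76.02, 73.00 and 77.9 in the day 3 libraries. mt-Atp8, a small membrane subunit of ATP synthase, had 18.97, 22.3 and 18.01 normalized counts in the day 28 libraries, against 12.8, 20.6 and 23.1 in the day 3 libraries. These groups overlapped as well. With intervals as wide as -0.94 to 1.14 (95%, log2 difference of mt-Atp8), a moderate change of the low genes was not detectable at counts this low.

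**Figure D2:**
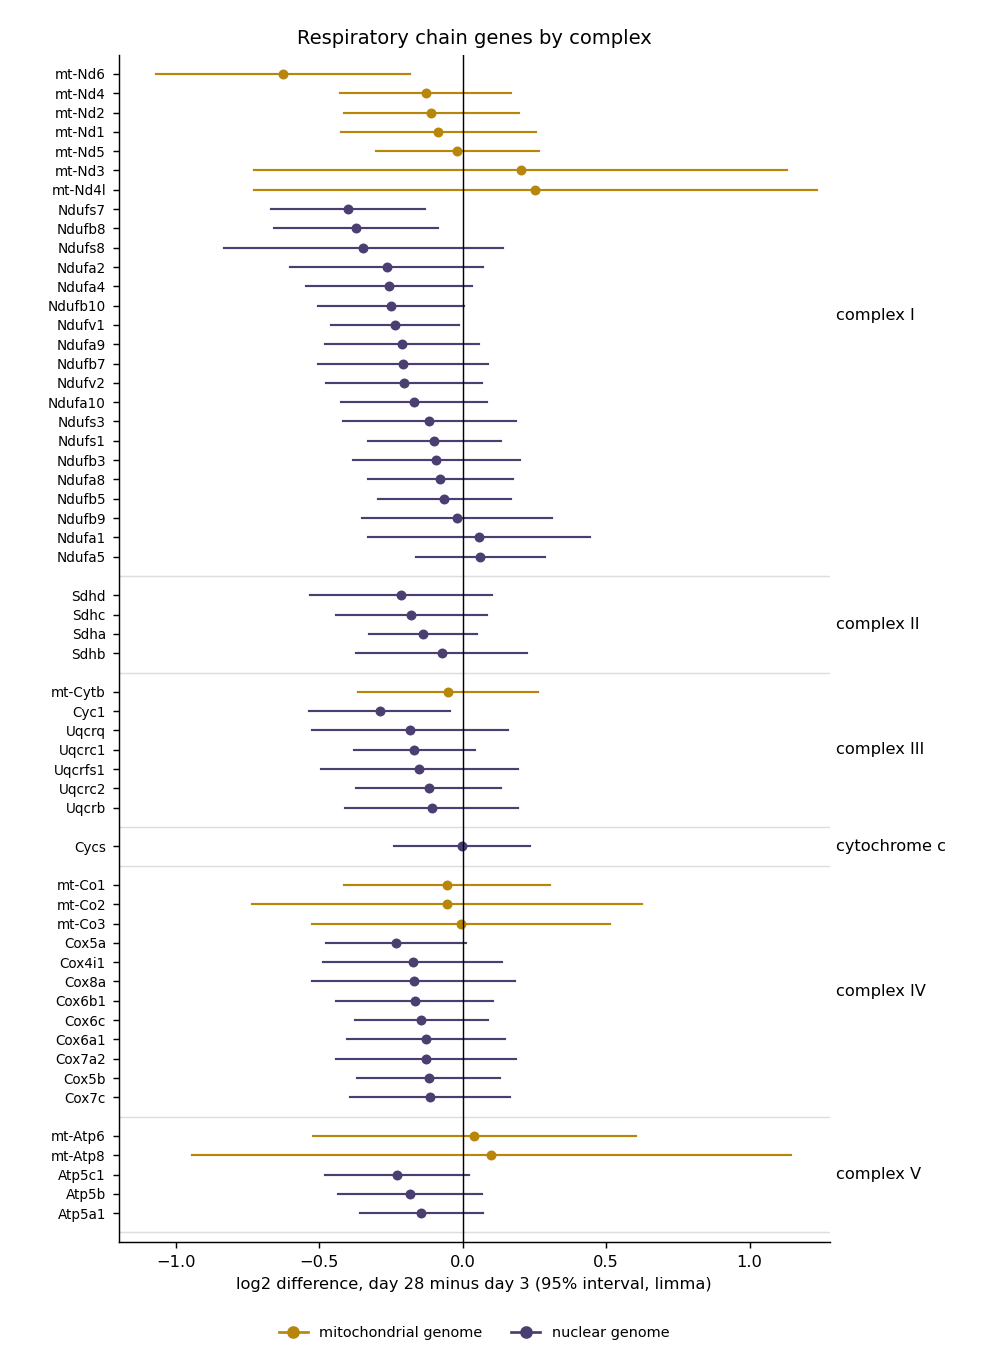
Log2 difference, day 28 minus day 3, of the 55 genes with its 95% interval from limma (n = 3 libraries each), grouped by complex and coloured by genome. The nuclear genes run from -0.40 to 0.062, with 40 of 42 below 0, and none of the 55 passed the adjusted threshold.

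Of the 42 nuclear genes, 40 had a negative difference and 2 a positive one, against 51.4% negative over all genes tested, and 0 passed the test. The negative count was 39 with TMM factors and 38 under quantile normalization. The median log2 difference was -0.17, against -0.0091 over all genes tested. The mean normalized counts of these genes ran from 387 (Ndufs8) to 11859 (Atp5b) at day 28 and from 483 (Ndufb9) to 13538 (Atp5b) at day 3. Unadjusted, 5 of the 55 genes had a p under 0.05, or 9.09%, all of them lower at day 28, against 13.4% of all genes in either direction and 6.39% in that one. Groups did not overlap for 5 nuclear genes, all lower at day 28, which is 11.9% of the 42 against 9.21% of all genes. Both shares lay near the background, and what the nuclear genes had in common was a small difference of one sign. The smallest adjusted p of any of the 55 genes was 0.200, for Ndufs7.

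Complex I held the 3 nuclear genes with the lowest differences, with a median of -0.20 over 19 genes and 17 of 19 negative. Ndufs7, an iron-sulfur subunit next to the quinone site, had 647, 692 and 646 normalized counts in the day 28 libraries, against 748, 950.0 and 936 in the day 3 libraries (log2 difference -0.40, SE 0.12, adjusted p = 0.200). Ndufb8, an accessory subunit of the membrane arm, had 755, 671 and 763 normalized counts in the day 28 libraries, against 839.9, 1109 and 898 in the day 3 libraries (log2 difference -0.37, SE 0.13, adjusted p = 0.249). Ndufv1, the flavoprotein that takes electrons from NADH, had 1531, 1664 and 1632 normalized counts in the day 28 libraries, against 1705, 2081 and 1912 in the day 3 libraries (log2 difference -0.24, SE 0.10, adjusted p = 0.348). In these 3 genes all day 28 libraries lay below all day 3 libraries, with day 3 replicate 1 the nearest to day 28. Ndufb10, another accessory subunit, also did not overlap (log2 difference -0.25, adjusted p = 0.376). Ndufs8, an iron-sulfur subunit, had a difference of -0.35 with overlapping groups. Only the accessory subunits Ndufa1 and Ndufa5 had positive differences; Ndufa5 had 847, 915 and 894 normalized counts in the day 28 libraries, against 799.6, 923 and 825 in the day 3 libraries (log2 difference 0.062, SE 0.10, adjusted p = 0.831), and Ndufa1 a difference of 0.057. Ndufa4, placed here with complex I by its name but also described as a complex IV subunit, had a difference of -0.26. The other 11 nuclear complex I genes lay between -0.27 (Ndufa2, an accessory subunit) and -0.019 (Ndufb9, another). Among them, the electron-carrying subunits Ndufv2 and Ndufs1 had differences of -0.20 and -0.10, and Ndufa9, which sits near the quinone site, had -0.21.

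**Figure D3:**
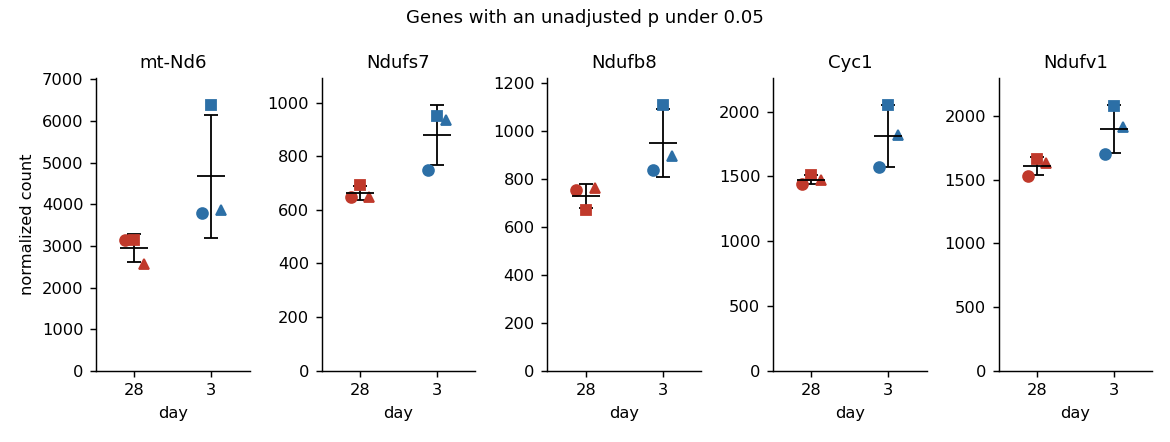
Normalized counts (linear axis from 0) of the 5 genes with an unadjusted p under 0.05, day 28 left of day 3, 1 point per library, with circle, square and triangle for replicates 1, 2 and 3. Black bars are the mean and SD (n = 3 each); no gene's groups overlap, and day 3 replicate 2 is the highest library in every panel.

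Complex II, which also serves the tricarboxylic acid cycle, had 4 of 4 differences negative. Sdha, the flavoprotein that oxidizes succinate, had -0.14, and the membrane anchor Sdhc -0.18. Sdhd, the other anchor, had 633, 695 and 755 normalized counts in the day 28 libraries, against 705, 976 and 756 in the day 3 libraries (log2 difference -0.22, SE 0.14, adjusted p = 0.548). Sdhb, the iron-sulfur subunit, had 1432, 1650.1 and 1459.6 normalized counts in the day 28 libraries, against 1380.3, 1923 and 1515 in the day 3 libraries (log2 difference -0.074, SE 0.13, adjusted p = 0.850). Both overlapped between days, and without day 3 replicate 2 the difference of Sdhb was 0.063. The electron carrier Cycs had 987, 1059 and 1135 normalized counts in the day 28 libraries, against 976, 1163 and 1053 in the day 3 libraries (log2 difference -0.0033, SE 0.10, adjusted p = 0.993). Cycs shares 23.9% of its 75-base windows with other annotated genes, the highest share among the nuclear genes. These 5 genes held few reads, the most abundant, Gm10053, averaging 13.2 normalized counts at day 28 and 9.10 at day 3. In all, 11 of the 42 nuclear genes share at least 1 window with another annotated gene.

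All 6 nuclear genes of complex III and all 9 of complex IV had negative differences, with medians of -0.16 and -0.14. Cyc1, the cytochrome that hands electrons to cytochrome c, had 1445, 1513 and 1470.1 normalized counts in the day 28 libraries, against 1573, 2047 and 1821 in the day 3 libraries (log2 difference -0.29, SE 0.11, adjusted p = 0.294), with no overlap between days. Uqcrb, a small subunit of complex III, had 947, 1150.1 and 1163 normalized counts in the day 28 libraries, against 1095, 1378 and 1053 in the day 3 libraries (log2 difference -0.11, SE 0.13, adjusted p = 0.768). The core proteins Uqcrc1 and Uqcrc2 had differences of -0.17 and -0.12, and the Rieske iron-sulfur protein Uqcrfs1 had -0.15. Uqcrq, another small subunit, had -0.18. In complex IV, the matrix-side subunit Cox5a had 1359.7, 1436 and 1314 normalized counts in the day 28 libraries, against 1399, 1706 and 1746 in the day 3 libraries (log2 difference -0.23, SE 0.11, adjusted p = 0.393). Cox7c, a membrane subunit, had 1315, 1467 and 1446 normalized counts in the day 28 libraries, against 1283, 1739 and 1585 in the day 3 libraries (log2 difference -0.11, SE 0.12, adjusted p = 0.735). Cox4i1, the regulatory subunit that binds ATP, had a difference of -0.17, and the membrane subunit Cox8a had -0.17. Uqcrb and Cox7c share 16.7% and 19.6% of their windows with other genes, of which the most abundant, Gm12338, averaged 26.7 normalized counts at day 28 and 31.2 at day 3. Groups overlapped for all 9 nuclear genes of complex IV, whose differences spanned -0.23 to -0.11. In ATP synthase, Atp5c1, the rotating gamma subunit, had 2533, 2966 and 2630.2 normalized counts in the day 28 libraries, against 2762, 3452 and 3346 in the day 3 libraries (log2 difference -0.23, SE 0.11, adjusted p = 0.413). Atp5a1, the alpha subunit, had 10815, 11543 and 10655 normalized counts in the day 28 libraries, against 11000.5, 13154 and 12400.1 in the day 3 libraries (log2 difference -0.14, SE 0.095, adjusted p = 0.553). The catalytic beta subunit Atp5b had a difference of -0.18, and all 3 overlapped between days.

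The nuclear genes shared a pattern over the libraries, and the gap between days was smaller without 1 library. Their mean log2 deviation from each gene's own mean over the 6 libraries was -0.14, -0.028 and -0.075 in day 28 replicates 1 to 3, against -0.13, 0.27 and 0.11 in day 3 replicates 1 to 3. Day 3 replicate 1 was thus as low as the day 28 libraries. Day 3 replicate 2 was the highest library for 35 of the 42 genes, or 83.3%, against 22.1% of all genes tested. Without day 3 replicate 2 the median difference of the nuclear genes was -0.076, with 34 of 42 negative, and without day 3 replicate 1 it was -0.27, with 41 negative. With both left out, 1 day 3 library remained and 38 of 42 were negative.

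Marker genes of other cell types also differed between these libraries. The 6 hepatocyte markers summed to 8674 to 11823 normalized counts at day 28, against 6260.5, 95500.3 and 8109 in day 3 replicates 1 to 3, and 6 of 6 were highest in day 3 replicate 2. Of these, Alb, which encodes the main plasma protein, had 1021, 1139 and 582 normalized counts at day 28, against 21.1, 67649.7 and 477 at day 3. In every library but day 3 replicate 2, most of the hepatocyte sum was Ttr alone, so outside that library the sum says little about the other hepatocyte markers. Fgb, for one, had 63.9, 55.4 and 51.2 normalized counts at day 28, against 0.92, 4298 and 53.5 at day 3. Ttr had 7360, 7551 and 11029 normalized counts at day 28, against 6230, 14114 and 7469 at day 3. The 5 red blood cell markers summed to 1602 to 2146 at day 28, against 2247 to 5206 at day 3, and 5 of 5 were highest in day 3 replicate 2. Transcripts of 15 very long genes, whose level depends on RNA integrity, had mean deviations of 0.10, 0.032 and 0.18 in the day 28 libraries, against 0.22, -0.31 and -0.23 in the day 3 libraries. They were lowest in day 3 replicates 2 and 3, where the nuclear respiratory genes were highest. Oligodendrocyte markers, 9 in number, summed to 75623 to 93419 at day 28, against 111193 to 132307 at day 3, and the 9 striatal neuron markers to 27134 to 33490.0, against 15412 to 22109. The 4 muscle markers tested had mean deviations of 0.081, -0.35 and -0.30 at day 28, against -0.48, 0.81 and 0.24 at day 3, highest in day 3 replicate 2. The 7 microglia markers summed to 4304 to 4794 at day 28, against 4119.9 to 6620.4 at day 3, and the 6 endothelial markers to 2274 to 2508, against 1840.5 to 3124, with day 3 replicate 1 highest and day 3 replicate 2 lowest in either list. Of 7 astrocyte markers, 6 had a negative difference (median -0.36), and their sums were 64569.9 to 67893 at day 28, against 64976 to 69182 at day 3. Of the astrocyte list only Aldoc passed (log2 difference -0.68, SE 0.091, adjusted p = 0.0345, limma), and of the striatal list only Rgs9 passed (log2 difference 1.04, SE 0.15, adjusted p = 0.0411, limma). No marker of these lists was at 0 in all libraries, though the muscle marker Ckm was at 0 in all 3 day 28 libraries and in day 3 replicate 3, the muscle marker Tnnt3 in day 3 replicate 3, and the hepatocyte marker Apoa2 in day 3 replicate 1. Their part in the small differences of the nuclear genes was not tested.

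**Figure D4:**
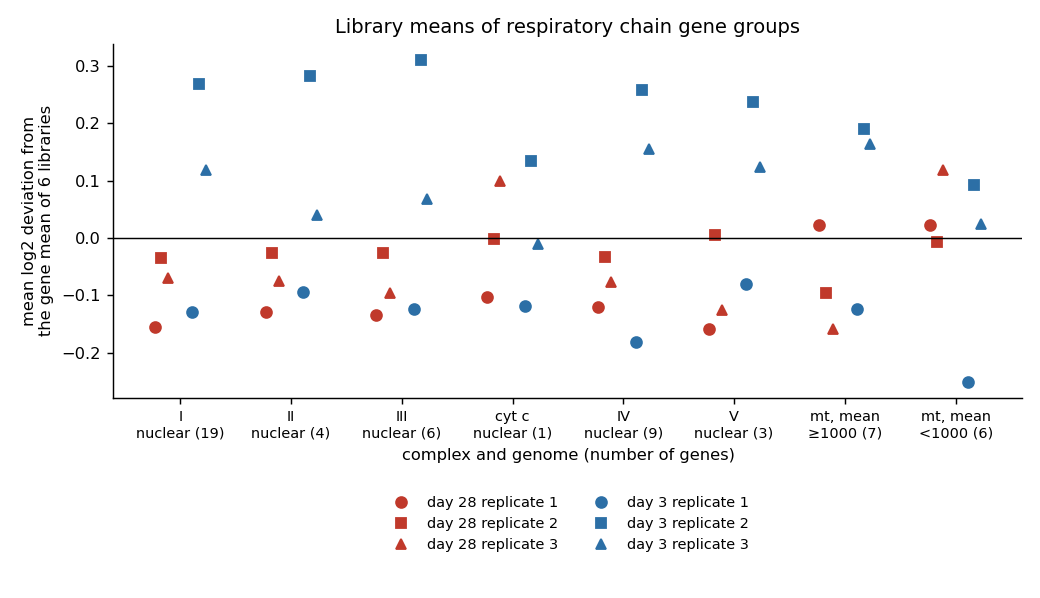
Mean log2 deviation from each gene's mean over the 6 libraries, by complex and genome, 1 point per library, with the number of genes in brackets. Day 3 replicate 2 is the highest library in every nuclear group, and day 3 replicate 1 lies among the day 28 libraries in complexes I, II, III and V.

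Within a library, mitochondrial and nuclear genes could be set against each other with no effect of the size factor beyond that of the pseudocount. The mean deviation of the 13 mitochondrial genes minus that of the 42 nuclear genes was 0.16, -0.026 and 0.044 at day 28, against -0.049, -0.12 and -0.0097 at day 3, a difference between days of 0.12 on the log2 scale. Day 28 replicates 1 and 3 lay above 0 and all day 3 libraries below it, with day 28 replicate 2 at -0.026 among the day 3 libraries. The gap depended on which mitochondrial genes were taken. With the 7 well-counted ones the values were 0.16, -0.067 and -0.084 at day 28, against 0.0096, -0.077 and 0.054 at day 3, and the difference was 0.0092. With mt-Nd6 left out of the 7, they were 0.20, -0.047 and -0.024 at day 28, against -0.020, -0.18 and 0.068 at day 3, and the difference was 0.088, less than its pooled SD over libraries of 0.13. For all 13 genes the pooled SD was 0.079. The days overlapped for each of these 3 gene sets, and the difference is given as a description with no test. For all 13 genes, leaving out day 28 replicate 1 gave a difference of 0.070, and leaving out day 28 replicate 2 one of 0.16, the ends of the range over single libraries. It was 0.053 with only genes averaging 50 or more normalized counts and 0.20 under quantile normalization.

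By complex, the contrast between genomes overlapped between days in complexes I, III, IV and V. For complex I, where mt-Nd3 and mt-Nd4l are of the low group, it was 0.20, -0.043 and -0.013 at day 28, against 0.029, -0.12 and -0.057 at day 3. For complex III, where mt-Cytb is the only mitochondrial gene, it was 0.21, -0.054 and 0.021 at day 28, against -0.015, -0.24 and 0.083 at day 3. In complex IV, mt-Co2 and mt-Co3 are of the low group, and each weighs as much as mt-Co1. The contrast was 0.071, -0.091 and 0.19 at day 28, against 0.012, -0.10 and -0.082 at day 3. In day 28 replicate 3, mt-Co2 and mt-Co3 had 72.98 and 88.1 normalized counts, their highest of that day. mt-Co1 had 268327 there, its lowest of that day. For complex V, whose mitochondrial genes mt-Atp6 and mt-Atp8 are both of the low group, it was 0.17, 0.14 and 0.080 at day 28, against -0.43, -0.078 and 0.12 at day 3. Day 3 replicate 1 lay lowest in complex V, and day 3 replicate 2 lowest in complexes I, III and IV. The reads of the 13 mitochondrial genes came nearly all from the 7 well-counted ones, and reads counted to the copies are not included. The reads of the 13 were 11.6, 9.88 and 10.01 times those of the 42 nuclear genes at day 28, against 9.91, 9.10 and 10.49 times at day 3, again with overlap.

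**Figure D5:**
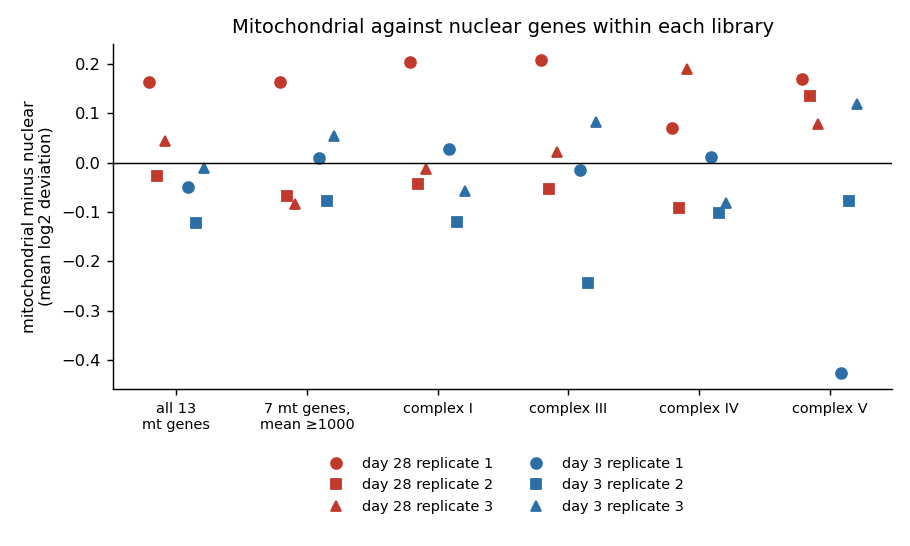
Mean log2 deviation of mitochondrial genes minus that of nuclear genes in each library, for all genes, for the 7 well-counted mitochondrial genes against all nuclear ones, and by complex. Points of day 28 and day 3 overlap in each column, and the lowest point is day 3 replicate 1 in complex V at -0.43.

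Other genes of the pathway were mostly negative as well, both further subunits and genes with other roles in the mitochondrion. Of 38 further nuclear subunits tested, 0 passed, 38 had a negative difference and the median was -0.19. Their mean deviations were -0.16, -0.082 and -0.069 in the day 28 libraries, against -0.090, 0.31 and 0.10 in the day 3 libraries, so day 3 replicate 2 was again highest. The complex I accessory subunits Ndufb2 (log2 difference -0.45, SE 0.14, adjusted p = 0.231) and Ndufa6 (log2 difference -0.32, SE 0.10, adjusted p = 0.231) had the smallest p. Among 45 assembly factors, 0 passed, 31 were negative and the median was -0.057. The smallest p was that of Uqcc1, a complex III assembly factor (log2 difference -0.37, SE 0.15, adjusted p = 0.321). Of 14 genes of the tricarboxylic acid cycle, which feeds electrons to the chain, 0 passed, 13 were negative and the median was -0.14. Idh3g, an isocitrate dehydrogenase subunit, had the smallest p (log2 difference -0.21, SE 0.083, adjusted p = 0.324). Of 18 membrane and import genes 0 passed, 15 were negative and the median was -0.10, with the outer membrane receptor Tomm22 lowest in p (log2 difference -0.31, SE 0.11, adjusted p = 0.288).

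Genes that copy, transcribe or process the mitochondrial genome were split in sign. Of 27, 0 passed, 16 were negative and 11 positive, and the median was -0.066. Tfam, which packages mitochondrial DNA and starts its transcription, had a log2 difference of -0.10, and Polrmt, the mitochondrial RNA polymerase, one of -0.066. Of 10 nuclear regulators 0 passed, with 5 negative and 5 positive. Esrrg, an orphan nuclear receptor that drives respiratory genes, had 520.1, 557 and 524 normalized counts at day 28, against 767, 776 and 578 at day 3 (log2 difference -0.39, SE 0.13, adjusted p = 0.252). Its groups did not overlap, and without day 3 replicate 3 its difference was -0.53 and passed (limma adjusted p = 0.0415), in the fit that called 618 genes. At day 3 that fit kept only replicates 1 and 2, where the cerebellar markers summed to 28552 and 27453 normalized counts. Ppargc1a, the coactivator of mitochondrial biogenesis, had a difference of -0.043 and did not pass (adjusted p = 0.885).

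Promoters of the nuclear genes were searched, on both strands, for the letters of 3 factors known to regulate respiratory genes. RefSeq promoters (build GRCm38.p6, 250 bases before to 50 after the start) matched 31 of the 42 nuclear genes, giving 33 promoters. GCGCATGC, from the core of the NRF1 motif, was in 5 of 33 promoters of the nuclear genes (15.2%), against 4.62% of promoters of other tested genes and 2.71% of all 32851. CCGGAAGT, an ETS motif bound by GABPA, was in 2 of 33 promoters of the nuclear genes (6.06%), against 6.98% of promoters of other tested genes and 3.89% of all 32851, and AAGATGGC, the core of the YY1 motif, in 3 of 33 promoters of the nuclear genes (9.09%), against 3.83% of promoters of other tested genes and 2.75% of all 32851. With so few matches these shares are a description only, and a missing match says only that these letters were not in the window. The promoters of Ndufs7, with the lowest difference of the nuclear genes and 1 YY1 match, and of Uqcrc1, with an NRF1 match on each strand, are shown because they differ in which motif they hold. Capitals mark the matches, and in Uqcrc1 a match on either strand overlaps the other.
Ndufs7 (chr10:80249199-80249498, plus strand, GRCm38.p6): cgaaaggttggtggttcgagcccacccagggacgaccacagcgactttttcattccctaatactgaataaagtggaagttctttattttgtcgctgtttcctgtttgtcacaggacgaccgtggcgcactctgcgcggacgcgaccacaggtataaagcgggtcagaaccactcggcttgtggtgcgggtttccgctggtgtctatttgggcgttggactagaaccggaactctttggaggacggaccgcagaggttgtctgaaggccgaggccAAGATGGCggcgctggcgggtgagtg
Uqcrc1 (chr9:108936398-108936697, plus strand, GRCm38.p6): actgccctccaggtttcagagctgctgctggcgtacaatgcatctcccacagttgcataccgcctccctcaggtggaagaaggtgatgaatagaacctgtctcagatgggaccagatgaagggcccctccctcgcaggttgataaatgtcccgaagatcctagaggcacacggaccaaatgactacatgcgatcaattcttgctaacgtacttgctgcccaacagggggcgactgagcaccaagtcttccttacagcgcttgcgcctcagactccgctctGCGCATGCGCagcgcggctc
Both genes had negative differences of -0.40 and -0.17 and both were highest in day 3 replicate 2. Ndufb8 and Ndufa9 held the other YY1 matches, with differences of -0.37 and -0.21. Cox6a1, Cycs, Ndufa8 and Sdhb held the other NRF1 matches, with -0.13, -0.0033, -0.078 and -0.074. Cox8a and Ndufs3 held the GABPA matches, with -0.17 and -0.12. Genes whose promoters held no match ranged widely too, with Ndufs8 at -0.35 and Ndufa5 at 0.062. A link between motif and difference was not tested.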

How the data were processed

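Polyadenylated RNA of brain tissue was sequenced from stranded libraries made with 1 µg of RNA, per the labels' protocols, with 3 libraries each at days 28 and 3. The deposited table held log2 values. After the log and an added 1 were undone, 100% of the values in a library were whole multiples of its smallest step, within 0.001 reads. The deposited log2 values thus hold normalized counts from which the reads can be recovered. The build was GRCm39, per the submitters' processing notes; aligner, counter and annotation are not given in the sources used here. Symbols came from GENCODE M21, which matched 52073 of 56748 identifiers and all 55 genes.

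The 16162 genes that averaged 10 or more normalized counts were tested with limma 3.58.1 in R 4.3.3 on the log2 values (pseudocount 1), group as the only term, an intensity trend, two-sided, Benjamini-Hochberg over all genes at 0.05. Fold changes on the log2(value + 1) scale understate changes of low genes. The procedure was tested on simulated data in which all 6 libraries had the same spread. The real day 3 libraries differed more among themselves than the day 28 libraries did, which the simulation does not cover. Lists outside the 55 held 252 genes, of which 249 matched. Shared sequence was measured with 75-base windows over GENCODE M21 transcripts. Libraries of a group differed beyond sampling noise (chi-square per degree of freedom at least 8.98).

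The members and lists were chosen with earlier results of these data known. Values are given in full for the mitochondrial genes, the nuclear genes of highest and lowest difference per complex and genes with an unadjusted p under 0.05; other genes were chosen by smallest p in a list or for their role. Alternatives covered pseudocount, filter, scaling, variance model, voom, a replicate block, a cerebellar covariate and each library left out. Sums with copies, the 7 well-counted genes, the same without mt-Nd6, and leaving out both cerebellum-rich libraries were added after the data were seen. Figures used matplotlib 3.10.9.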

Additional observations from a re-analysis of the deposited data

How the results depend on the processing

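No respiratory chain gene passed the threshold under the alternatives run, and the smallest adjusted p of any of them was 0.0825, without day 3 replicate 1. The median difference of the nuclear genes stayed negative, from -0.27 to -0.076. The count over all genes was 68 with no filter, 3 with no intensity trend, 69 with library weights, 0 with voom on recovered reads (against 2113 at an unadjusted p under 0.05), 2 with the cerebellar covariate, 76 with day 3 replicates 1 and 2 both left out, and from 1 to 618 with single libraries left out. Over the other mitochondrial lists it was 0 to 1 with single libraries left out, the 1 being Esrrg without day 3 replicate 3. A replicate block gave 0 calls over all genes (against 2386 at an unadjusted p under 0.05), and it changed no call of a respiratory chain gene. Same-numbered libraries correlated at 0.034, 0.13 and -0.062 in their deviations from the mean of their day. With 3 libraries a day, these values cannot decide whether the numbers pair the samples, and the labels do not say. The median of the mitochondrial genes was 0.10 under quantile normalization, which moved the median of all genes to 0.026. The contrast between genomes was 0.0092 with the 7 well-counted genes and 0.088 without mt-Nd6 among them.

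The sign of some small differences turned. Under quantile normalization they were 0.12 (mt-Nd1), 0.13 (mt-Nd5), 0.050 (mt-Cytb), 0.067 (mt-Co2) and 0.10 (mt-Co3). mt-Co3 was 0.0015 with TMM factors and, with library weights, 0.015, with mt-Atp6 at -0.047. With the cerebellar covariate they were 0.060 (mt-Co2), 0.059 (mt-Co3), -0.13 (mt-Atp6), -0.16 (mt-Atp8) and 0.030 (Uqcrb). With day 3 replicates 1 and 2 both left out they were -0.20 (mt-Atp6), -0.22 (mt-Atp8) and 0.040 (Uqcrb). Summed with copies they were -0.033 (mt-Nd3), 0.0049 (mt-Co2), 0.066 (mt-Co3) and -0.032 (mt-Atp6). With single libraries left out they ran from -0.20 to 0.0086 (mt-Nd1), -0.082 to 0.032 (mt-Nd5), -0.13 to 0.010 (mt-Cytb), -0.16 to 0.000836 (mt-Co1), -0.24 to 0.13 (mt-Co2), -0.12 to 0.078 (mt-Co3), -0.19 to 0.16 (mt-Atp6), -0.14 to 0.26 (mt-Atp8), -0.18 to 0.063 (Sdhb) and -0.18 to 0.011 (Uqcrb). Without a turn of sign, the differences ran from -0.20 to -0.033 (mt-Nd2), 0.13 to 0.25 (mt-Nd3), -0.25 to -0.050 (mt-Nd4), 0.16 to 0.32 (mt-Nd4l), -0.76 to -0.38 (mt-Nd6), -0.31 to -0.076 (Sdhd), -0.24 to -0.019 (Cox7c), -0.22 to -0.087 (Atp5a1), 0.019 to 0.12 (Ndufa5), -0.39 to -0.20 (Cyc1), -0.45 to -0.25 (Ndufb8), -0.51 to -0.34 (Ndufs7), -0.31 to -0.17 (Ndufv1), -0.33 to -0.17 (Cox5a) and -0.33 to -0.17 (Atp5c1). The cause of these shifts was not tested. With 3 libraries a day, the 95% intervals of all but 4 nuclear genes included 0.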
